A study of Mus musculus with 15 samples.

Results

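The proteasome genes were examined as every gene whose symbol is Psma, Psmb, Psmc, Psmd, Psme, Psmf or Psmg followed by a number. Of the 55291 genes in the tables, 48 carried such a symbol. They comprised 8 genes of the alpha ring, 7 of the constitutive beta ring, 3 of the immunoproteasome, 1 of the thymoproteasome, 6 ATPases and 11 non-ATPase subunits of the 19S regulatory particle, 4 activators, and 8 assembly factors and inhibitors. A gene was tested in a comparison when its mean value there was at least 10, which 44 members passed in both comparisons of cultured cells and 46 passed in tumors.

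The proteasome degrades proteins that carry ubiquitin chains. Its barrel-shaped core is built from outer rings of alpha subunits, which gate the entrance, and inner rings of beta subunits, of which Psmb5, Psmb6 and Psmb7 cut the substrate. Interferon-gamma replaces these with Psmb8, Psmb9 and Psmb10 to form the immunoproteasome, which produces peptides for display to T cells. The 19S cap binds ubiquitin chains, removes them and unfolds the substrate with a ring of ATPases, and PA28, made of Psme1 and Psme2, is an alternative cap that is likewise induced by interferon-gamma.

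RNA-seq was done on 15 libraries from HY19636, a single mouse pancreatic ductal adenocarcinoma line derived from a genetically engineered mouse model driven by Cre in the pancreas, so that every group shares the lesions of this line. In culture, in DMEM with serum, there were 3 untreated libraries (CNT), 3 from cells given the glutamine antagonist DON at 25 µM for 24 h, and 3 from cells kept without glutamine for 24 h (noGln). In vivo, cells were placed in the pancreas of female C57BL/6J mice aged 8 to 10 weeks with an intact immune system, and 3 tumors were taken from mice given vehicle (VEH) and 3 from mice that received the DON prodrug DRP-104 (3 mg per kg, 2 cycles of 5 days of dosing and 2 days without). Tumors were collected on day 21. Because the labels do not say whether libraries of a culture group came from separate cultures, their p-values measure only the spread between these libraries. The control columns of both culture tables are named for vehicle, as the tumor samples are, and were taken as CNT because the tables are named for CNT. Their summed fibroblast markers were 478 to 646, against 38469.4 to 81586.2 in the vehicle tumors, so they do not hold those tumors.

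The culture libraries held 25.2 to 48.2 M reads and the tumor libraries 16.3 to 20.7 M, so counting error was small for all members but Psma8, Psmb8, Psmb9 and Psmb11. The summed markers of tumor epithelium were high in every library (at least 97999.7 in tumors and 108927 in the DON table), mostly from keratins. Epcam of this list was 1382 to 5479 in tumors. In the DON table it was lower, at 40.3 to 68.3 after DON and 327 to 442 in CNT. Without glutamine it was 44.0 to 68.9. The summed antigen-presenting cell markers did not exceed 23.9 in culture, and the defining T cell gene Cd3e was at 0 in every culture library. The T cell list as a whole summed to 55.4 to 166 in culture, beside 42.7 to 82.2 in the tumors other than DRP-104 tumor 3. One tumor stood apart. DRP-104 tumor 3 was the highest of the 6 tumors for 7 of 7 T cell markers and 4 of 4 antigen-presenting cell markers, against 27.5% of all genes tested, and results that rest on it are given with and without it.

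Promoter windows, 250 bases before to 50 bases after the transcription start in RefSeq on GRCm38.p6, were found for 40 of the 48 members (43 windows). They were searched on both strands for 5 motifs, written here on 1 strand: TGACNNNGC (core of the antioxidant response element, bound by the Nfe2l1 and Nfe2l2 family that controls proteasome genes), CCAAT (bound by NF-Y), the interferon-stimulated response element (GAAA repeated after a gap of 2 bases), TTCNNNGAA (gamma-activated sequence, through which interferon-gamma acts) and TGATGNAA (C/EBP-ATF response element). No position was shared by matches of different motifs in the windows printed. The windows shown were picked, and each holds 1 match. They belong to the catalytic subunit Psmb5 and its inducible counterpart Psmb8, the PA28 subunit Psme1, and the 19S scaffold Psmd2. The windows of Psmd1, Psmg3 and Psmf1, among the members with the largest changes in cells, held no match and are not shown. Capitals mark the antioxidant response element core in Psmb5 (chr14:54617946-54618245, minus strand, first base at -47), the gamma-activated sequence in Psmb8 (chr17:34197945-34198244, plus strand, -97) and in Psmd2 (chr16:20651402-20651701, plus strand, +5), and the interferon-stimulated response element, read on the opposite strand, in Psme1 (chr14:55578244-55578543, plus strand, +10).
Psmb5: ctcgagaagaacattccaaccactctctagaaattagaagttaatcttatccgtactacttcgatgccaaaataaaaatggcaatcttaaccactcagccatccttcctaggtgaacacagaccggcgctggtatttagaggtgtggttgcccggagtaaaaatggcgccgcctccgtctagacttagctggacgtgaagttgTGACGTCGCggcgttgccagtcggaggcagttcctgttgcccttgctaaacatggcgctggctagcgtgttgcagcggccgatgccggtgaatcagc
Psmb8: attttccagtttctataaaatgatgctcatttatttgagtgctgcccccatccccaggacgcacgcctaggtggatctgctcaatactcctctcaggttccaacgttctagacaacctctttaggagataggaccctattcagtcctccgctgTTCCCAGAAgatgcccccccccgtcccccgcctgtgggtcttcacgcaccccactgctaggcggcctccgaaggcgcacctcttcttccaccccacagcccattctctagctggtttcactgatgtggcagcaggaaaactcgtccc
Psme1: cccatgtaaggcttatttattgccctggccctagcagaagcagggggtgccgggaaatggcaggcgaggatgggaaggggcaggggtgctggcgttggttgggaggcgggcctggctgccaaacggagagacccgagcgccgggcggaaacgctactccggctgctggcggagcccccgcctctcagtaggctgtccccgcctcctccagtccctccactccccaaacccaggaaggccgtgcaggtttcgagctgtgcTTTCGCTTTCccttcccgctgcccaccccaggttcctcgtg
Psmd2: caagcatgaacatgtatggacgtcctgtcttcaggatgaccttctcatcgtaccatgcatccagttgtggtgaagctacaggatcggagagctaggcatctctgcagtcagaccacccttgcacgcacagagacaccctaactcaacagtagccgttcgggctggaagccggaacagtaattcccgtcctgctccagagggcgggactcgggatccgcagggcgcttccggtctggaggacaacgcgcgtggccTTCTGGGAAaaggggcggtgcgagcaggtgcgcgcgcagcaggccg

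TGACNNNGC was in 14.0% of the members' windows (Psmb5, Psmb6, Psmc6, Psmd9, Psmd12 and Psme4) and in 12.4% of all 32851 windows. CCAAT was in 32.6% of the members' windows against 37.4% of all, and in 5 of the 8 alpha ring windows (Psma1, Psma2, Psma3, Psma6 and Psma7). The interferon-stimulated response element was in 11.6% against 3.44%, which came from 5 members (Psmb3, Psmd4, Psmd9, Psme1 and Psmg4). TTCNNNGAA was in 6.98% against 8.30%, and TGATGNAA in 2.33% against 3.97%. These letter matches describe the windows and are not measured binding sites.

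Per length, the core subunits of untreated cells lay within a narrow band of levels and the immunoproteasome was nearly absent. In RPKM (reads per kb of gene length, scaled to the reads of the library), the 14 constitutive core genes other than the testis-type alpha subunit Psma8 ranged from 70.6 (Psma3) to 289 (Psmb4), a 4.09-fold span with a median of 145. On this scale the 19S ATPases ran from 40.5 (Psmc6) to 178 (Psmc1), the 19S non-ATPases from 49.97 (Psmd11) to 221 (Psmd2) and the activators from 17.7 (Psme4) to 54.2 (Psme3). Assembly factors, which are not part of the finished particle, were lower at 3.27 (Psmg3) to 28.9 (Psmg1).

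Over the 9 culture libraries together, 0 reads were counted for Psmb8, 1 for Psmb9, 0 for Psma8, and 8, all in 1 untreated library, for the thymus-type subunit Psmb11. If reads are independent, a count of 0 allows up to 3 reads per library, so that Psmb8 (chr17:34197721-34201454, GRCm38) was at most 0.0592% of its constitutive counterpart Psmb5 per length in untreated cells. Psmb10 (chr8:105935728-105938392) was the exception among the inducible subunits. Its level was 16.8 ± 2.89 RPKM (SD, n = 3), which was 12.3 to 16.1% of its counterpart Psmb7 per length.

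**Figure D1:**
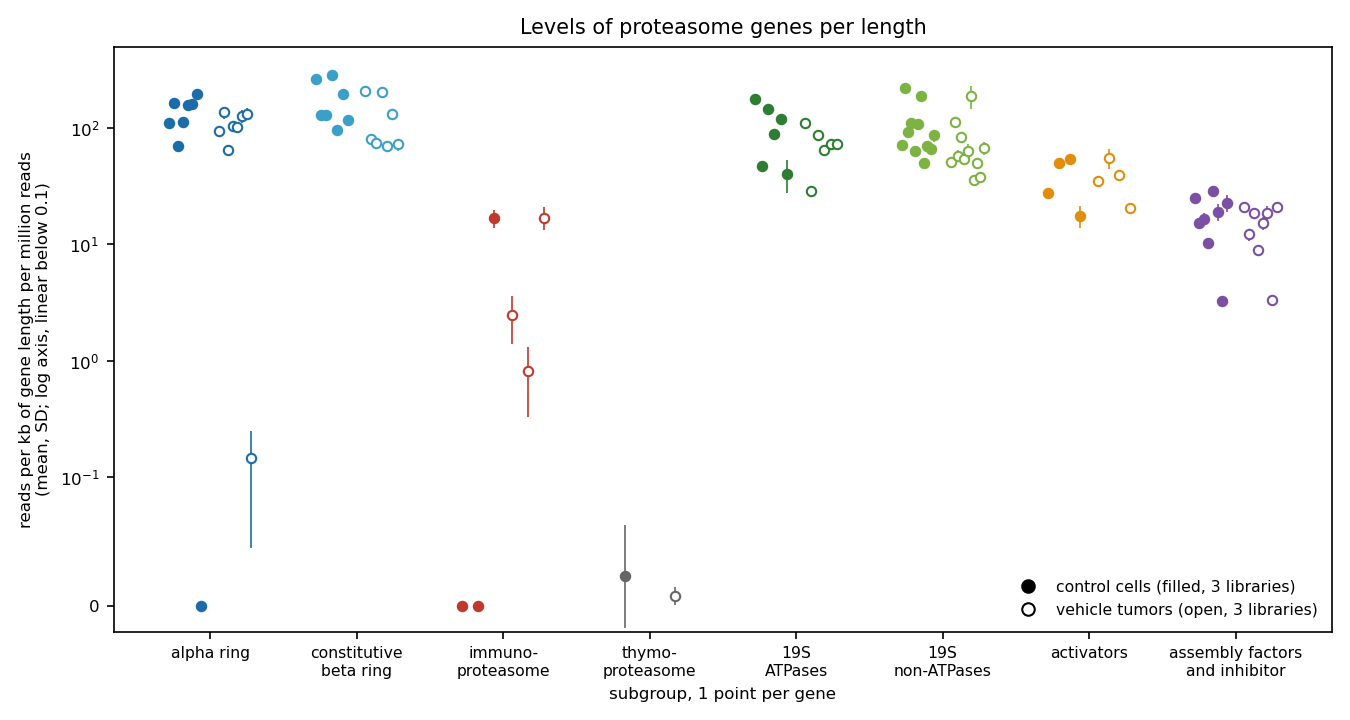
Mean level of each proteasome gene in RPKM, on a log axis that is linear below 0.1, with filled points for the 3 untreated cell libraries, open points for the 3 vehicle tumors and bars for the SD. Constitutive core genes other than Psma8 lie between 70.6 and 289 in cells, while Psmb8 is at 0 in cells and Psmb10 at 16.8.

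After DON, with the authors' scaling, more members were called lower than higher. Of the 44 members tested, 29 passed an adjusted p of 0.05 in limma, of which 21 fell and 8 rose; over all genes tested 68.1% passed (34.7% lower, 33.3% higher), so the total was close to the background. The median member log2 fold change was -0.18, against 0.02 for all 13556 genes, and lay between -0.26 (without CNT library 3) and -0.07 (without CNT library 1) when single libraries were left out. All fold changes are on the log2(value + 1) scale of the authors' normalized values. No core or activator gene passed as higher, whereas 6 of 8 assembly factors and inhibitors rose and none fell.

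The split between directions depended on the scaling. With quantile normalization, which moved the median of all genes to 0.13, 16 members rose and 13 fell after DON, and the member median was 0.00, again below the median of all genes. With that scaling the core gene Psmb6 passed as higher (0.25, adjusted p = 0.0218). Without glutamine, 26 of 44 members passed, 18 lower and 8 higher (69.4% of all 13390 genes passed, 34.9% lower and 34.5% higher), the member median was -0.19 against 0.01 for all genes, and quantile normalization gave 20 lower and 8 higher. Both treatments were compared with the same 3 CNT libraries, so agreement between them is in part built in and their values are given side by side.

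**Figure D2:**
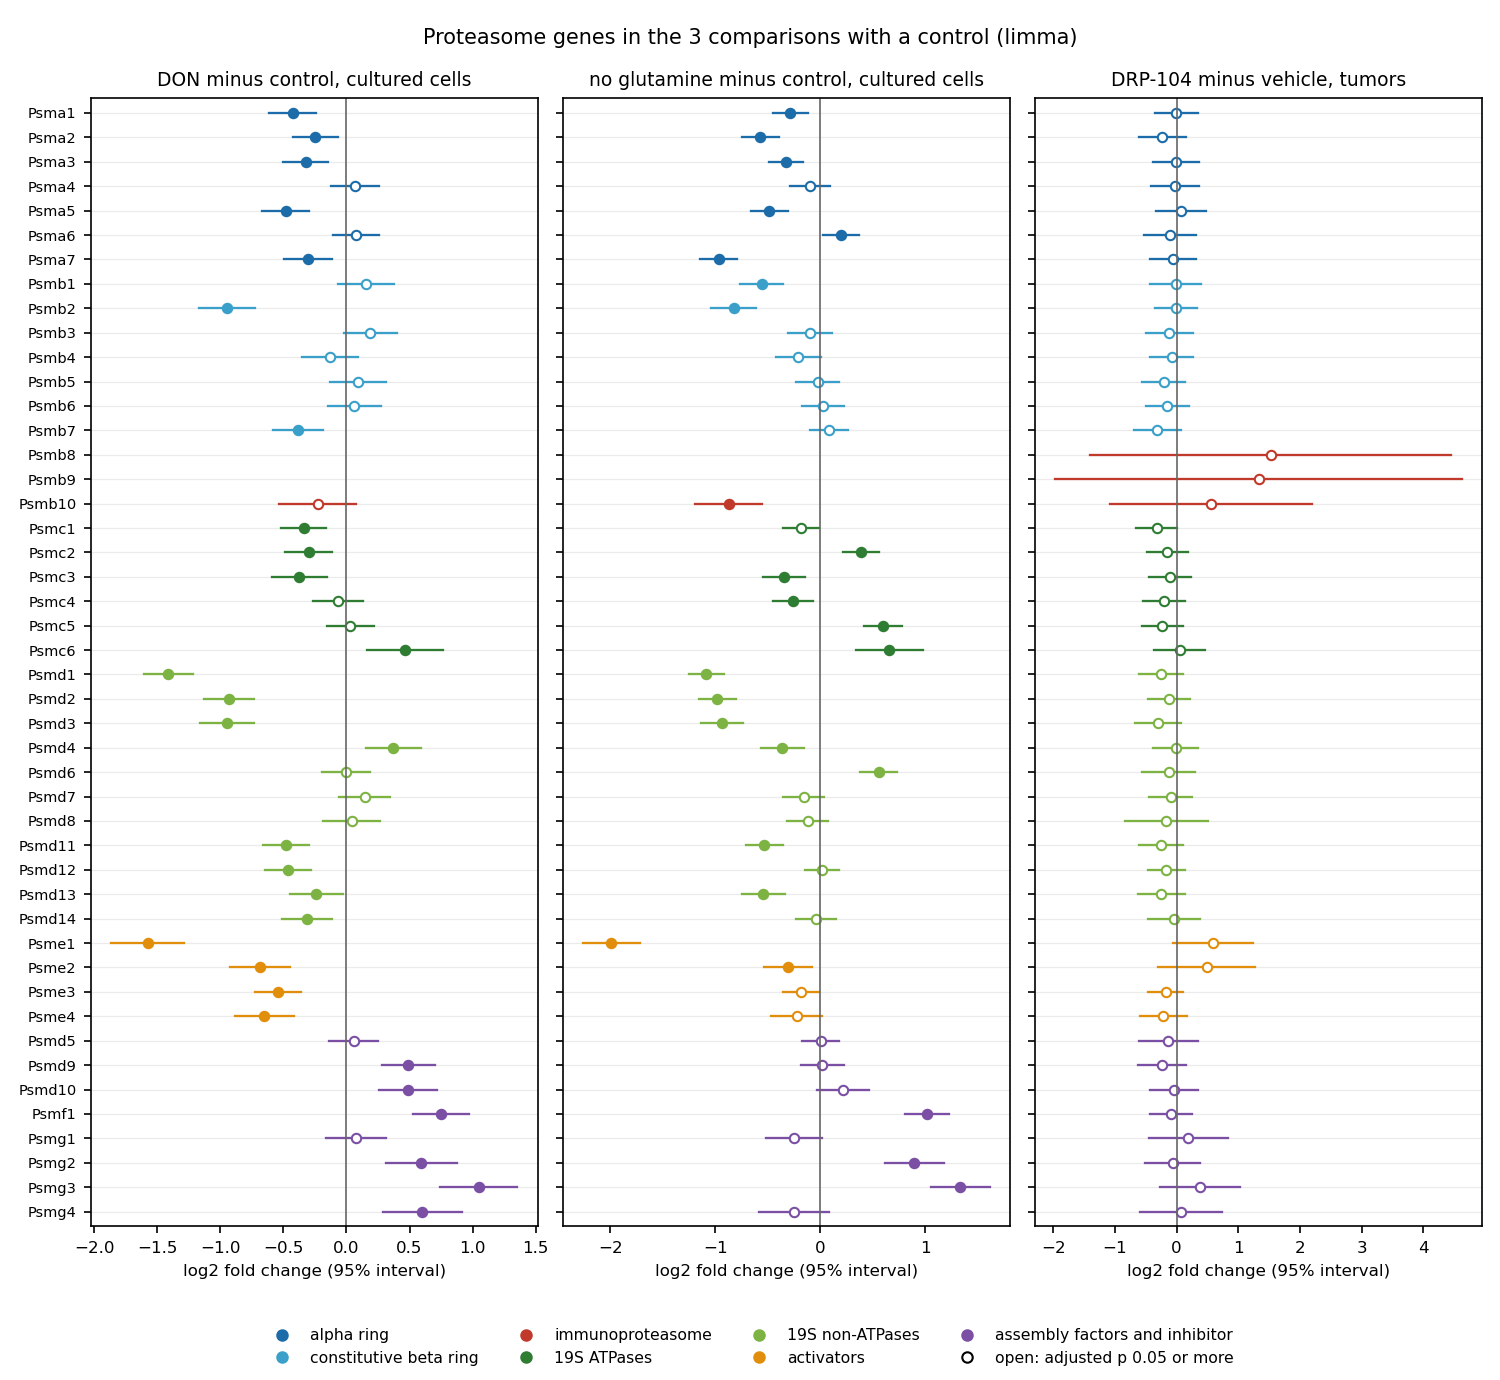
Log2 fold change of each tested proteasome gene with its 95% confidence interval from limma, for DON and noGln against CNT cells and for DRP-104 against VEH tumors (3 libraries per group, x axes differ between panels). Psme1, Psmd1, Psmd2, Psmd3 and Psmb2 lie far below 0 in both cell panels, Psmg3 and Psmf1 above 0, and the intervals in tumors span 0.

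For scale, 34.7% of all genes passed as lower and 33.3% as higher after DON, and 34.9% and 34.5% without glutamine. In the alpha ring, 5 of 7 tested genes fell after DON and none rose (median -0.30, and -0.34 to -0.09 over the alternatives). The calls of Psma2, Psma3 and Psma7 after DON were lost in at least 1 alternative fit. The changes were small. Psma5 was 4642, 4799 and 4517 after DON and 6924, 6606 and 5988 in CNT, a log2 fold change of -0.48 (SE 0.09, adjusted p = 0.000237). Psma4 (0.07, 95% interval -0.12 to 0.26) and Psma6 (0.08, -0.11 to 0.26) did not pass. Without glutamine 5 of 7 fell and 1 rose (median -0.32). Psma7 was 5087, 4662 and 4720.5 without glutamine against 10045, 9465 and 8802 in CNT (-0.97, SE 0.08, adjusted p = 4.16e-07), which was 51.1% of the control level, whereas after DON it was 8473, 7832 and 7805 against 10659, 10021 and 9126 (-0.30, adjusted p = 0.00809).

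In the constitutive beta ring only 2 of 7 genes passed after DON, and both fell (median 0.06), near the 34.7% of all genes that fell. The subunit with the chymotrypsin-like activity, Psmb5, was 3143, 2962 and 2827 after DON and 3094, 2891 and 2414 in CNT, so the groups overlapped (0.10, 95% interval -0.13 to 0.32, adjusted p = 0.427). Psmb6, the caspase-like subunit, also overlapped (0.06, -0.15 to 0.27). Psmb7, the trypsin-like subunit, fell from 4906, 4562 and 4187 to 3691, 3322 and 3441 (-0.38, SE 0.09, adjusted p = 0.002). The structural subunit Psmb2 fell most, from 4062, 3915 and 3235 to 2076, 1851 and 1865, 51.9% of the control level (-0.95, SE 0.10, adjusted p = 1.96e-06).

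Without glutamine the beta genes that fell were Psmb2 and Psmb1. Psmb2 was 2095, 2070.1 and 1843 against 3828, 3698 and 3119.5 in CNT (-0.82, adjusted p = 8.93e-06). Every treated library lay below every control, as in 4979 of all 13390 genes tested. Psmb1 was 5713, 6001 and 5692 against 9656, 8486 and 7587 (-0.56, adjusted p = 0.000161). The catalytic subunits were close to their controls, at -0.02 (95% interval -0.23 to 0.18) for Psmb5, 0.03 (-0.17 to 0.23) for Psmb6 and 0.08 (-0.09 to 0.26) for Psmb7.

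Of the inducible subunits, only Psmb10 was high enough to test in cells. It was 585, 609 and 595 after DON and 863, 699 and 566 in CNT, so the groups overlapped (-0.23, 95% interval -0.54 to 0.08, adjusted p = 0.171). This result rested on CNT library 3, without which the value was -0.38 and passed (adjusted p = 0.0102). Without glutamine Psmb10 was 369, 339 and 381 against 813, 661 and 546, and fell to 54.6% of control (-0.87, SE 0.15, adjusted p = 0.000157). The groups did not overlap, as in 9852 of all 13390 genes tested. Per length it was 7.24 ± 0.534% of Psmb7 without glutamine, 15.7 ± 1.14% after DON and 14.1 ± 1.86% in CNT (SD, n = 3 each).

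The 19S ATPases, the unfolding motor of the cap, moved in different directions. After DON 3 of 6 fell and 1 rose, and without glutamine 2 fell and 3 rose. Of all genes, 34.7% fell and 33.3% rose after DON, and 34.9% fell and 34.5% rose without glutamine. All 4 calls after DON (Psmc1, Psmc2, Psmc3 and Psmc6) were lost in at least 1 alternative fit. Without glutamine the call of Psmc4 was lost. Over the alternatives the ATPase median after DON ranged from -0.24 to 0.004. Psmc6 rose in both, from 1875, 1665 and 2697 to 2772, 2719 and 2928 after DON (0.46, SE 0.14, adjusted p = 0.00992), although 1 control library lay near the treated ones and the call was lost without CNT library 2 (adjusted p = 0.0587). Psmc2 fell after DON, from 5773, 5396 and 5096 to 4585, 4258 and 4354 (-0.30, adjusted p = 0.007), and rose without glutamine, to 6932, 6608 and 6671 from 5441, 5097 and 4915 (0.39, adjusted p = 0.000695). With quantile normalization the fall of Psmc2 after DON did not pass (-0.12, adjusted p = 0.192). Psmc5 rose without glutamine (0.60, adjusted p = 3.09e-05) and was at 0.03 after DON. Psmc3, which fell in both, lies over 4579 bases of Slc39a13 on the opposite strand, whose reads came to 20.8% of those of Psmc3 in culture.

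Among the 19S non-ATPases, 7 of 11 fell and 1 rose after DON (median -0.31), and 6 fell and 1 rose without glutamine (median -0.36). The shares of all genes that fell were 34.7% and 34.9%. The largest falls were in Psmd1 and Psmd2, the large scaffold subunits of the cap, and in Psmd3, a subunit of its lid. Psmd1 was 3071, 2581 and 2732 after DON against 7192, 7656 and 7431 in CNT, 37.6% of control (-1.41, SE 0.09, adjusted p = 8.29e-09). Without glutamine it was 3383, 3203 and 3396 against 6778, 7231 and 7167, 47.1% of control (-1.08, adjusted p = 8.47e-08).

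Psmd2, the non-ATPase transcript with the highest RPKM in CNT cells, was 11703, 11147 and 11694 after DON against 22739, 23389 and 19945, and 10524, 10559 and 10694 without glutamine against 21430.1, 22092 and 19236. The treated levels were 52.4% and 50.7% of control (-0.93 and -0.98, adjusted p = 6.45e-07 and 3.39e-07). Psmd3 changed by nearly the same amounts (-0.94 and -0.93, adjusted p = 1.41e-06 and 1.61e-06). In each of these 3 genes all treated libraries lay below all controls. The same held for 4955 of all 13556 genes after DON and for 4979 of 13390 without glutamine. With these 3, which were singled out for their size of change, left aside, 4 of the other 8 fell and 1 rose after DON (median -0.12), and 3 fell and 1 rose without glutamine (-0.14).

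Psmd4, the ubiquitin receptor also known as Rpn10, moved in opposite directions. It was 10198, 10090.2 and 9636 after DON against 8279.8, 8395 and 6587 in CNT (0.37, SE 0.10, adjusted p = 0.005), and 5899.9, 5719 and 5506 without glutamine against 7803, 7929.5 and 6353 (-0.36, adjusted p = 0.00444). Psmd14, the deubiquitinase of the lid, fell after DON (-0.31, adjusted p = 0.00768) and was at -0.04 without glutamine (95% interval -0.23 to 0.15). Its call after DON was lost in at least 1 alternative fit. Psmd6 rose without glutamine (0.56, adjusted p = 5.63e-05) and was at -0.01 after DON.

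All 4 activators fell after DON, and 2 of 4 fell without glutamine, beside 34.7% and 34.9% of all genes. The PA28 alpha subunit Psme1 (chr14:55578123-55581529), whose promoter window is printed above, had the largest fall of all members in both comparisons. It was 704, 506 and 639 after DON against 2086, 1778 and 1631 in CNT, 33.5% of control (-1.58, SE 0.13, adjusted p = 1.57e-07), and 458, 378 and 478 without glutamine against 1966, 1679.8 and 1573, 25.2% of control (-1.99, SE 0.12, adjusted p = 2.41e-08). Its partner in the ring, Psme2, fell less. Psme2 was 913, 994 and 1068 after DON against 1589.6, 1777 and 1431 (-0.69, adjusted p = 8.08e-05), and -0.30 without glutamine (adjusted p = 0.0214), where the call was lost when any of 3 single libraries was left out (adjusted p up to 0.0918). Reads of its near-identical copy Psme2b came to at most 10.2% of the reads of Psme2. Psme3, a nuclear homologue of PA28, and the single-chain activator Psme4 (PA200) fell after DON (-0.54 and -0.65) and did not pass without glutamine (-0.18 and -0.22, adjusted p = 0.0555 and 0.0865).

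Assembly factors and inhibitors were mostly higher after DON. After DON 6 of 8 passed, all higher (median 0.54), beside 33.3% of all genes that were higher. Without glutamine 3 of 8 passed, all higher (median 0.12), a share near that of all genes (34.5%). Psmg3, which pairs with Psmg4 to build the alpha ring, was 591, 538 and 487 after DON against 296, 239.8 and 246 in CNT, 2.07-fold higher (1.05, SE 0.14, adjusted p = 1.74e-05), and 590.1, 618 and 659 without glutamine against 279, 226 and 237, 2.52-fold higher (1.33, SE 0.13, adjusted p = 1.31e-06). Psmf1, the PI31 protein that inhibits the core in vitro, rose 1.68-fold after DON and 2.02-fold without glutamine (adjusted p = 2.08e-05 and 1.06e-06). Psmg2 rose in both (0.59 and 0.90), while Psmg4 rose after DON (0.60, adjusted p = 0.00227) and was at -0.25 without glutamine (95% interval -0.58 to 0.08). The 19S chaperones Psmd9 and Psmd10 rose after DON (0.49 each) and did not pass without glutamine (0.02 and 0.22).

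To account for every member tested, those lower in each of the comparisons were Psma1, Psma2, Psma3, Psma5, Psma7, Psmb2, Psmc3, Psmd1, Psmd2, Psmd3, Psmd11, Psmd13, Psme1 and Psme2, and those higher in each were Psmc6, Psmf1, Psmg2 and Psmg3. As the comparisons share the CNT libraries, these lists are no count of agreement. Psmd4 and Psmc2 passed in opposite directions. After DON but not without glutamine, Psmd9, Psmd10 and Psmg4 passed as higher and Psmb7, Psmc1, Psmd12, Psmd14, Psme3 and Psme4 as lower. Without glutamine but not after DON, Psma6, Psmc5 and Psmd6 passed as higher and Psmb1, Psmb10 and Psmc4 as lower. Psma4, Psmb3, Psmb4, Psmb5, Psmb6, Psmd5, Psmd7, Psmd8 and Psmg1 passed in neither. In the same libraries the summed value of the 5 tumor epithelium markers was also lower than in CNT (108927 to 117157 after DON and 328447 to 424061 in CNT), and its part in these results was not tested.

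**Figure D3:**
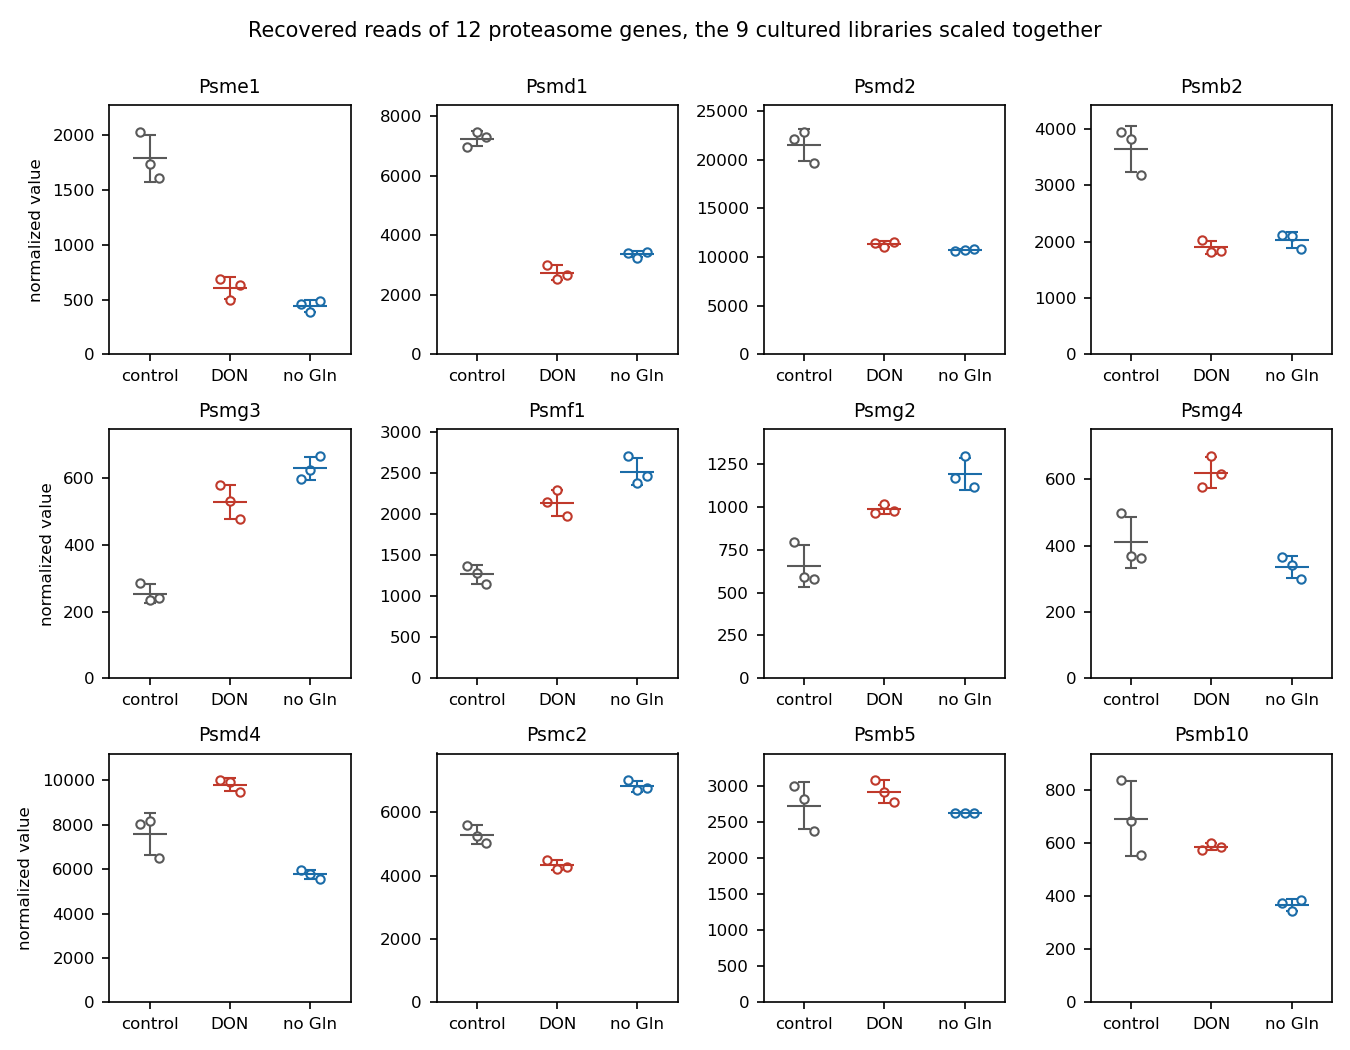
Normalized value of 12 proteasome genes in each of the 9 culture libraries, scaled together (points, with bars for the mean and SD of 3 libraries, y axes from 0). Psme1, Psmd1, Psmd2 and Psmb2 are lower in all DON and noGln libraries than in all CNT libraries, and the groups overlap for Psmb5.

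The treatments were then set against each other on 1 scale. Of 44 members, 26 differed between DON and noGln, 15 higher after DON and 11 lower, beside 63.3% of all 13514 genes (31.0% higher, 32.3% lower). The member median was 0.05 against -0.01 for all genes. With quantile normalization the split was 24 higher and 9 lower.

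The highest and the lowest difference were those of Psmg4 and Psmc2. Psmg4 was 577, 669.9 and 615 after DON and 367, 343 and 301 without glutamine (0.88, 95% interval 0.58 to 1.18, adjusted p = 5.31e-05). Psmc2 was 4502, 4197 and 4279.8 after DON and 7011, 6688 and 6750.4 without glutamine (-0.66, -0.81 to -0.50, adjusted p = 1.05e-06). The groups did not overlap in either gene, as in 9685 of all 13514 genes tested. Psmd4 (0.76), Psmb1 (0.74), Psma7 (0.70) and Psmb10 (0.68) were higher after DON, with adjusted p between 1.12e-06 and 0.000409.

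Psmc5 and Psmd6 (-0.53 each), Psmb7 (-0.44) and Psmd1 (-0.30) were lower after DON than without glutamine. Psme1 was 0.44 higher after DON (SE 0.13, adjusted p = 0.00939), but the call was lost without DON library 1 or without noGln library 2 (adjusted p up to 0.0586), while Psme2 was lower after DON (-0.35, adjusted p = 0.00769). For Psmd2, Psmd3 and Psmb2, named here because of their large falls against CNT, the difference did not pass: Psmd2 0.08 (95% interval -0.08 to 0.24), Psmd3 0.02 (-0.16 to 0.20) and Psmb2 -0.09 (-0.29 to 0.11).

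**Figure D4:**
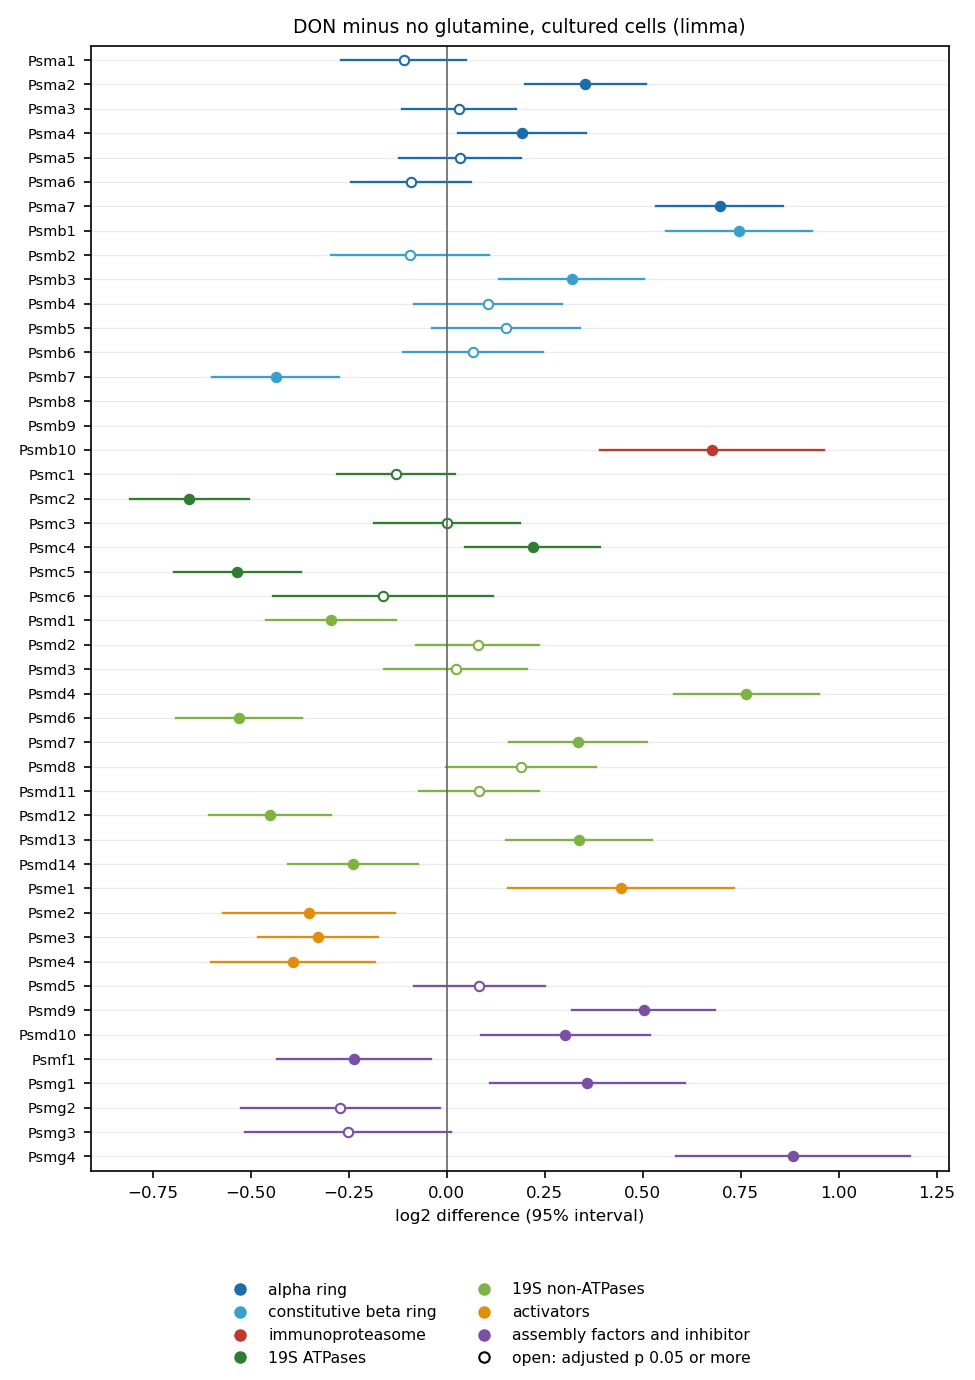
Log2 difference between DON and noGln cells for each tested proteasome gene with its 95% confidence interval from limma (3 libraries per group, scaled together with CNT). Psmg4 is highest at 0.88 and Psmc2 lowest at -0.66.

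Genes that act with the proteasome were read from lists of partners, transcriptional regulators, ubiquitin genes and the interferon route. Of the 20 partner proteins tested, 6 rose and 8 fell after DON and 8 rose and 5 fell without glutamine, beside 33.3% higher and 34.7% lower of all genes after DON and 34.5% and 34.9% without glutamine. Zfand2a, an arsenite-inducible protein that binds the 19S cap, rose by 2.142 and 1.499 on the log2 scale, and Akirin2, which carries proteasomes into the nucleus, by 1.04 and 1.37. The unfoldase Vcp fell (-0.65 and -0.62), whereas the shuttle factor Rad23b fell after DON and rose without glutamine (-1.01 and 0.52). Pomp, which assembles the beta ring, did not pass in either (-0.17 and 0.05).

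Among 13 regulators, 8 rose and 4 fell after DON and 8 rose and 1 fell without glutamine. Of all genes, 33.3% rose and 34.7% fell after DON, and 34.5% rose and 34.9% fell without glutamine. Nfe2l1, the transcription factor that raises proteasome genes when proteasome activity is short, rose in both (0.75 and 0.52), as did the protease Ddi2 that releases it (0.31 and 0.28) and the small Maf partners Mafg, Maff and Mafk (0.39 to 1.68). Nfe2l2 fell after DON (-0.72) and was at -0.10 without glutamine. Of the 6 ubiquitin and E1 genes, 3 rose and 1 fell after DON, and 4 rose and 1 fell without glutamine. Ubb rose (0.44 and 0.33) and Uba1, the main activating enzyme, fell (-0.60 and -0.76).

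In the interferon and peptide-loading list, 4 rose and 7 fell of 12 tested after DON, and 4 rose and 7 fell of 13 without glutamine, beside the shares of all genes given above. Nlrc5, the activator of class I genes, had the largest change without glutamine (2.82), from few reads (150 over all 9 culture libraries), and was not tested after DON. The chaperone gene Calr (0.42 and 0.75) and the peptidase gene Erap1 (0.28 and 0.45) rose in both, Canx rose without glutamine (0.44), and B2m rose after DON (0.27) and fell without glutamine (-0.60). The receptor genes Ifngr1 (-1.91 and -1.22) and Ifngr2 (-1.39 and -0.55), the kinase gene Jak2 (-1.54 and -0.30) and the transcription factor Irf1 (-2.11 and -1.54) fell in both. Tapbp, which bridges peptide transporter and class I molecule, fell by 1.31 and by 1.55. Tap1 and Tap2, the transporter genes beside Psmb8 and Psmb9, had 14 and 28 reads over all 9 culture libraries and were not tested.

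In tumors no proteasome gene passed the test of DRP-104 against vehicle. Of 46 members, 0 passed an adjusted p of 0.05 in limma (lowest 0.916) and 0 had an unadjusted p under 0.05, beside 0 adjusted calls (0.0%) and 775 unadjusted (5.01%) of 15454 genes. edgeR called 0 of all genes. DESeq2 called 56 of the 15340 genes to which it gave an adjusted p (0.365%), with no member among them. It gave none for Psmb8 and Psmb9, so it could not call these genes. The member median was -0.10 (-0.17 to -0.02 with single tumors left out) against -0.01 for all genes, and 36 of 46 members had a negative value. In whole tumors, fewer cells of a type and less RNA per cell cannot be told apart.

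The 3 treated tumors lay wholly above or below the 3 vehicle tumors in 4 members, Psme1 above and Psmc1, Psmc5 and Psme3 below, beside 10.6% of all genes (4.83% above, 5.75% below). Psmc1, the lowest value of all, was 2499, 2358 and 2716 with DRP-104 and 2799, 3606 and 3110.1 with vehicle (-0.32, 95% interval -0.66 to 0.01). Psmb5 was 961, 881 and 1173 against 1138, 1159 and 1158 (-0.21, -0.56 to 0.14), so that in tumors too the groups overlapped. Subgroup medians were -0.03 for the alpha ring, -0.12 for the constitutive beta ring, -0.18 for the ATPases, -0.17 for the non-ATPases, 0.15 for the activators and -0.05 for the assembly factors. The summed fibroblast markers were lower with DRP-104 (18253.5 to 31582.2) than with vehicle (38469.4 to 81586.2), and their part in these values was not tested.

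The immunoproteasome was detected in tumors and was carried by 1 of them. Psmb8 was 123, 43.8 and 2579 in DRP-104 tumors 1 to 3 and 128, 64.0 and 71.2 in vehicle tumors. Psmb9 was 44.9, 15.0 and 1353 against 69.7, 20.4 and 40.4, and Psmb10 was 399, 228 and 2216 against 483, 331 and 394. DRP-104 tumor 3 was the highest in all 3 genes, by 4.58 to 20.2 times the next tumor, and the other DRP-104 tumors overlapped with vehicle. Psmb9 (chr17:34181988-34187764) shares 212 bases with Tap1 on the opposite strand, whose reads in tumors came to 227% of those of Psmb9.

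The log2 fold changes were 1.52 for Psmb8 (SE 1.27, 95% interval -1.40 to 4.44), 1.33 for Psmb9 and 0.56 for Psmb10, with adjusted p of 0.924 to 0.937. Without DRP-104 tumor 3 they were -0.18, -0.55 and -0.40 (adjusted p 0.873 to 0.968). The median of the 3 genes was 1.33 with this tumor and -0.40 without it, and edgeR and DESeq2, which fit counts rather than mean log values, gave 3.38 and 3.39 with it. Per length Psmb8 was 2.52 to 5.13% of Psmb5 in vehicle tumors and 5.84%, 2.27% and 100.5% in DRP-104 tumors 1 to 3. Psmb10 was 16.7 to 33.3% of Psmb7 in vehicle tumors and 31.7%, 16.9% and 142% in the DRP-104 tumors.

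The constitutive particle was not high in the same tumor. Over all genes tested, 27.5% were highest in DRP-104 tumor 3. This tumor was highest for 2 of 8 alpha ring genes, 1 of 7 constitutive beta genes, 0 of 6 ATPases and 0 of 11 non-ATPases. The alpha ring genes were Psma4 and Psma8, the latter near 0 (12.8). Psmd1 was 2197 in this tumor and at least 2643 in the others. The same tumor was also the lowest of the 6 for Psma1, Psmc6, Psmd2, Psmd3, Psmd4, Psmd8, Psmd11 and Psmd13, a rank not counted over all genes. Its T cell markers summed to 1293 (80.2 and 42.7 in the other DRP-104 tumors, 45.2 to 82.2 with vehicle), its antigen-presenting cell markers to 41743 (8502 and 3401, and 1004 to 6183) and its leukocyte markers to 5218 (5318 and 2561, and 2659 to 3640). No marker of these lists was at 0 in all 6 tumors. Of the 15 genes of the interferon route, 11 were highest in this tumor, among them Nlrc5 (2519, against 19.6 to 62.0). Their part in the result was not tested.

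**Figure D5:**
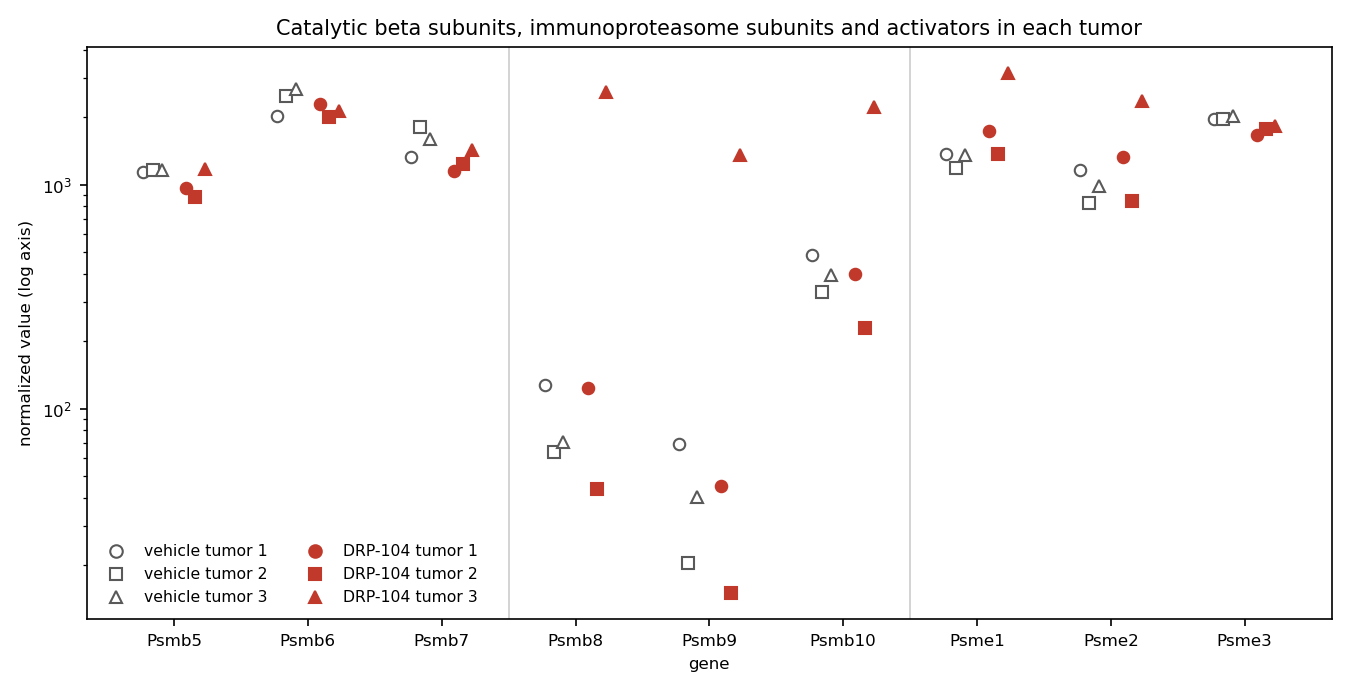
Normalized value of catalytic subunits, inducible subunits and PA28 genes in each of the 3 VEH and 3 DRP-104 tumors, on a log axis. DRP-104 tumor 3 reaches 2579 for Psmb8, 1353 for Psmb9 and 2216 for Psmb10, while Psmb5, Psmb6 and Psmb7 lie close together in all tumors.

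Psme1 was 1729, 1375 and 3150.1 with DRP-104 and 1368, 1184 and 1353 with vehicle (0.59, SE 0.28, 95% interval -0.06 to 1.24, adjusted p = 0.916), and 0.25 without DRP-104 tumor 3. Psme2 was 1327, 841 and 2354 against 1161, 829 and 989 (0.49), and 0.10 without that tumor. Psme3 was 1662, 1779.9 and 1831 against 1969, 1966 and 2033 (-0.18). Psma8 was between 0 and 12.8 and Psmb11 between 0 and 0.96 in the 6 tumors.

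FPKM values were also deposited for DRP-104 and vehicle tumors, and these did not show the high library. In RPKM, DRP-104 tumor 3 was at 74.5 for Psmb8 and 25.9 for Psmb9. The highest DRP-104 FPKM values were 3.17 and 1.69, so no order of the columns matches them. Whether the FPKM columns come from the same tumors was not tested. Of 46 members with a mean FPKM of at least 0.5, 0 had an unadjusted p under 0.05 (median -0.08, lowest adjusted p = 0.629). Psmb8 was 3.17, 1.47 and 2.01 FPKM with DRP-104 and 2.64, 1.93 and 2.06 with vehicle, and Psmb9 was 1.69, 1.37 and 0.973 against 1.85, 1.36 and 1.60. Psmb10 was 35.4, 14.9 and 12.6 against 18.7, 20.7 and 15.6. Deviations from the group mean in the FPKM table and the table of normalized values were compared over 10295 genes. Columns of the same number correlated at -0.1395, -0.0475 and -0.08884 for DRP-104 and at -0.1208, 0.2023 and 0.3304 for vehicle, so the tables were not matched tumor by tumor.

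Whether the effect of DRP-104 in tumors differed from that of DON in cells was tested directly, as the difference of the log2 fold changes. Of 46 members, 12 differed, 8 upward and 4 downward, beside 33.1% of 15070 genes (19.1% upward, 14.0% downward). The 46 include Psmb8 and Psmb9, which had 0 and 1 reads over the culture libraries. The member median was 0.04 against -0.02 for all genes, and with quantile normalization, which moved the median of all genes to -0.13, 5 members differed upward and 5 downward. Dose, duration, cell mixture and library set also differ between the settings and cannot be told apart from the compound. Without DRP-104 tumor 3, 13 members differed. The count was 6 without CNT library 2 and 7 without VEH tumor 3, DON library 1, DON library 2 or CNT library 1.

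The largest difference was in Psme1, at 2.17 (adjusted p = 0.00032), where the value was 0.59 in tumors and -1.58 in cells, and it was 1.82 without DRP-104 tumor 3 (adjusted p = 2.67e-05). Psme2 came next at 1.17 (0.49 in tumors and -0.69 in cells, adjusted p = 0.0301), and 0.79 without that tumor. Psmd1 (1.16), Psmb2 (0.94) and Psmd2 (0.81) had values of -0.25, -0.01 and -0.13 in tumors and were low after DON (-1.41, -0.95 and -0.93). Psmf1 (-0.83) and Psmd9 (-0.73) were lowest, with values of -0.09 and -0.24 in tumors and 0.75 and 0.49 in cells. For the inducible subunits the difference did not pass and turned sign without DRP-104 tumor 3, to -0.18 for Psmb8, -0.85 for Psmb9 and -0.17 for Psmb10. Psmb8 had 0 reads in culture and Psmb9 had 1, so both passed the mean of 10 only through the tumors. Their cell terms measure no effect of DON, and the difference for Psmb8 equals its tumor value (1.52).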

How the data were processed

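RNA-seq libraries were prepared, aligned and counted by a service provider. The submitters' processing notes name CASAVA, HISAT2, STAR 2.5, DESeq2 and GRCm39, with no role or order. The authors deposited 1 table for each comparison of a treatment with its control, and its per-library columns hold signal: gene counts divided by size factors. Fold changes and p-values of the authors' own comparisons stand in the same tables and were not used. A further table holds FPKM in columns named for DRP-104 and vehicle, which the authors deposited with gene positions on GRCm38. These positions are the ones printed here. Columns of per-sample values left out numbered 0.

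Values were whole multiples of 1 read for at least 99.99% of genes (tolerance 0.0051), so reads per library were recovered, with 281 M over the 9 culture libraries. RPKM was computed from recovered reads and the authors' gene lengths. The 3-read limits cover counting error only, whereas the 95% intervals of fold changes come from the spread between libraries. The limits take reads as independent. Among low counts, 69.6 to 72.7% were even numbers in the culture libraries and 41.9 to 46.5% in the tumor libraries. Culture reads may thus not be independent, and the cause was not tested.

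Each table was tested whole with limma 3.58.1 (trend) on log2(value + 1), for genes with a mean of at least 10, in R 4.3.3, with Benjamini-Hochberg adjustment over all genes tested and a threshold of 0.05. For DON against noGln, the 9 culture libraries were rescaled jointly from their reads. Alternatives were edgeR 4.0.16 (quasi-likelihood), DESeq2 1.42.0, other filters, pseudocounts of 0.5 and 10, quantile normalization, a threshold of 0.01, the FPKM table, array weights, a replicate block and each library left out. The fit was tested on simulated data: with 100 genes changed 2-fold, 54% were called with the tumors' design and mean values (15294 genes) and 100% in the DON design (13430 genes). The simulation used a single assumed dispersion per design, changed few and well-counted genes, and held no outlying tumor. These shares therefore do not carry over to genes such as Psmb8, or to a comparison in which most genes change. An exact test of 3 against 3 libraries cannot go below p = 0.1.

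Genes with values in the text were the catalytic and inducible subunits, PA28, the members at the extremes of each comparison, those called in opposite directions, and those under the mean of 10; other members were chosen after their values were seen. The members and lists were chosen with earlier results of these data known. Of the members, 18 overlap another gene's span, and whether counting used strand is not given in the sources used here. A few items of the labels and gene lists are not reported here.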

Additional observations from a re-analysis of the deposited data

Results flagged for a closer look

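In 12 proteasome genes the response to DRP-104 in tumors differed from the response to DON in cells when the difference itself was tested in 1 limma fit over 12 libraries (adjusted p under 0.05). They were 12 of 46 members tested, beside 33.1% of all 15070 genes. Psmb8 and Psmb9, counted in the 46, had 0 and 1 reads in culture. Differences are tumor minus cell, on the log2(value + 1) scale. Upward differences were found for Psme1 (2.17), Psme2 (1.17), Psmd1 (1.16), Psmb2 (0.94), Psmd2 (0.81), Psmd3 (0.64), Psma5 (0.55) and Psme3 (0.36). In these genes DON had lowered the level in cells (-0.48 to -1.58), while the value in tumors was between -0.30 and 0.59. Downward differences were found for Psmf1 (-0.83), Psmd9 (-0.73), Psmg2 (-0.66) and Psmd10 (-0.53), all assembly factors or inhibitors that DON had raised in cells (0.49 to 0.75) and that were between -0.24 and -0.04 in tumors. In every leave-one-out fit and every other alternative 6 of the 12 passed (Psme1, Psmd1, Psmb2, Psmd2, Psmf1 and Psmd9). Psma5, Psmd3, Psmd10, Psme2, Psme3 and Psmg2 were lost in at least 1 of them.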

How the results depend on the processing

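Over 13 to 18 alternatives per comparison, no called member changed sign. The number of called members was 27 to 31 after DON, 23 to 34 without glutamine (34 without CNT library 3), 0 in tumors and 20 to 33 between DON and noGln. For the difference between tumors and cells it was 6 at a threshold of 0.01 and ranged from 6 to 13 when single libraries were left out. Of the calls, 20 of 29 after DON, 23 of 26 without glutamine and 19 of 26 between them passed in every alternative. Lost in at least 1 after DON were Psma2, Psma3, Psma7, Psmc1, Psmc2, Psmc3, Psmc6, Psmd13 and Psmd14. Without glutamine the lost calls were those of Psma6, Psmc4 and Psme2. Values that turned sign were small or rested on 1 tumor. With single libraries left out, Psmb5 ranged from -0.0078 to 0.17 and Psmb6 from -0.0379 to 0.12 after DON, and from -0.12 to 0.0454 and from -0.0616 to 0.0797 without glutamine. In tumors Psmb8 ranged from -0.18 to 2.74, Psmb9 from -0.55 to 2.65 and Psmb10 from -0.40 to 1.24, and for tumors minus cells Psmb7 ranged from -0.0471 to 0.18, Psmb8 from -0.18 to 2.74, Psmb9 from -0.85 to 2.36 and Psmb10 from -0.17 to 1.47. The FPKM table, whose columns were not matched to these tumors, gave 0.0923 for Psmb5, -0.0259 for Psmb8, -0.16 for Psmb9 and -0.0721 for Psme1. Quantile normalization gave -0.0345 for Psmb7 in tumors minus cells. The cause was not tested. With a replicate block 0 members passed in tumors and 31 between DON and noGln, and samples of the same number did not deviate together (correlation -0.2745, 0.0379 and -0.3646 in tumors, -0.02528, 0.002841 and 0.07149 in culture). Tumors of unlike number correlated at -0.3215 to 0.4602. With so few libraries these values cannot decide whether the numbers pair the samples. No paired analysis was possible for DON or noGln against CNT and for tumors minus cells because the control columns, which are numbered under a vehicle name, could be assigned to the CNT group but not to its individual samples. edgeR and DESeq2 were not run for tumors minus cells. Depth limited Psmb8, Psmb9, Psma8 and Psmb11 in culture, where a count of 0 allows up to 3 reads per library.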
